A study of Mus musculus with 24 samples.

Results

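Whole-hippocampus RNA of untrained mice was compared between eIF2α conditional knock-in (cKI) mice and Cre-only control mice. The comparison took the 3 input libraries of naive cKI mice and the 3 input libraries of naive control mice, which are 6 of the 24 libraries in the series. Genes with at least 1 CPM (the count a gene would have if its library were scaled to 1 M counts) in at least 3 of these 6 libraries were tested, 14515 of the 51733 genes in the table. The series as a whole asks how the phosphorylation of eIF2α in excitatory neurons bears on memory, and the naive inputs show what differed between the genotypes before any training.

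The cKI mice carried eIF2α A/A, in which alanine replaces the phosphorylated serine on both alleles, together with fTg+, a floxed transgene of normal eIF2α that CaMKIIα-Cre removes. The control mice, labelled Standard CaMKIIα-Cre+, carried the same Cre driver without being cKI. All mice were adult males of 2 to 3 months on the C57BL/6 background, and naive mice received no fear conditioning. An input is the part of the lysate kept aside before RiboTag pulldown of tagged ribosomes, so it holds the RNA of every cell type. The hippocampi of 1 mouse were pooled for a library. The spread between replicates therefore holds differences between mice together with those from handling each library. Because the CaMKIIα promoter drives Cre in excitatory forebrain neurons, glia and most inhibitory neurons of a cKI mouse should keep the normal transgene. Mice of both genotypes taken 1 h after conditioning (3 inputs each) and the naive pulldowns (3 each) served for comparison. By the mouse codes in their labels, the naive pulldowns came from the same mice as the naive inputs, so their values are no separate check. The labels' protocols describe a common breeding scheme but do not say whether control mice were littermates of cKI mice, and inherited differences other than the knock-in, linked loci included, cannot be told apart from it.

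The eIF2 complex delivers the initiator tRNA to the ribosome. When a stress or nutrient kinase phosphorylates its α subunit, general initiation slows while a few transcripts with upstream reading frames, Atf4 above all, are translated better, and the ATF4 protein then switches on genes for amino acid synthesis, transport and tRNA charging. In the hippocampus, less phosphorylation of eIF2α is known to go with easier formation of long-term memory.

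The 6 libraries held 30.1 to 37.7 M counts each, so that 1 count was worth at most 0.033 CPM, and 22495 to 23453 genes had a count. Mitochondrial genes took 2.86 to 3.22% of counts. Hippocampal neuron markers were present in all 6: Slc17a7, the vesicular glutamate transporter of excitatory neurons, lay at 897 to 971 CPM in cKI inputs and 813 to 945 CPM in control inputs, and Prox1, a dentate granule cell factor, at 149 to 157 CPM in cKI inputs and 114 to 161 CPM in control inputs. In cKI replicate 3, 68 genes were more than 4-fold above or below the average of its 2 fellow cKI inputs, against 3 to 8 such genes in the other naive inputs. Tshz2, for example, was at 0.861 CPM there and at 83.8 and 86.4 CPM in the other cKI inputs, whereas Pter was at 127 CPM there and at 1.86 and 1.72 CPM. Control replicate 2 stood apart more broadly: its counts differed from those of control replicates 1 and 3 by a chi-square per degree of freedom of 26.1 and 32.6, against 4.41 between those 2. It also held 181 CPM of Ttr, the choroid plexus transthyretin, where the other 5 inputs held 2.02 to 26.4 CPM. Results are therefore given with and without cKI replicate 3, and calls that were lost without control replicate 2 are named.

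In naive inputs 152 genes passed the threshold, 57 higher and 95 lower in cKI, which is 1.05% of the genes tested (0.393% higher and 0.654% lower). Calls were made with edgeR's quasi-likelihood test at a Benjamini-Hochberg adjusted p under 0.05, and every adjusted p below comes from it. The changes were small. Of the 95 lower genes, 67 changed by less than 0.5 on the log2 scale and 5 by 1 or more, with a median size of 0.39. Of the 57 higher genes, 26 changed by less than 0.5 and 13 by 1 or more, with a median size of 0.52. All 152 genes had groups that did not overlap, as did 20.9% of the genes tested (9.91% with cKI above and 11% with cKI below). Without cKI replicate 3, 88 genes passed (35 higher and 53 lower), 67 of them among the 152. All 152 kept their direction, which leaving out a library could hardly change, since their groups did not overlap. The median log2 fold change over all genes was 0.004. The estimate of spread was shared with the 1 h inputs. A fit of the 6 libraries alone called 22 genes, 17 of them among the 152. At an unadjusted p under 0.05 edgeR's test found 2736 of the 14515 genes, and DESeq2's Wald test called 526 of 14509. Counts of these 2 kinds given for lists below are to be read against those shares.

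The group of cell type genes with the most calls was that of myelinating oligodendrocytes. Of 20 marker genes tested, 11 were lower in cKI, 0 were higher, and all 20 had a log2 fold change below 0, with a median of -0.39. Myelin basic protein, Mbp, which compacts the myelin sheath, was at 1977, 1804 and 1690 CPM in cKI inputs and at 2522, 2623 and 2357 CPM in control inputs. Every cKI input lay below every control input, and the log2 fold change was -0.46 (SE 0.06, edgeR adjusted p = 0.0086). Cldn11, which forms tight junctions between myelin layers, was at 189, 187 and 170 CPM in cKI inputs and at 265, 262 and 245 CPM in control inputs. The difference (log2 fold change -0.50, SE 0.07, edgeR adjusted p = 0.0086) was called in each of the 14 alternative analyses run on it.

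Further called members were Mog and Mag, surface proteins of the myelin sheath, Mobp and Cnp, which act at its cytoplasmic face, Opalin, the raft protein Mal and the lipid hydroxylase Fa2h. Their log2 fold changes ran from -0.49 (Opalin) to -0.37 (Mag), and in none of these genes did the groups overlap. Sox10, the transcription factor that sets oligodendrocyte identity, was at 42.1, 52.6 and 35.1 CPM in cKI inputs and at 59.1, 54.4 and 57.7 CPM in control inputs, and did not pass (log2 fold change -0.40, edgeR adjusted p = 0.17). Myrf, the regulator of myelin genes, had a log2 fold change of -0.13 (edgeR adjusted p = 0.29).

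**Figure D1:**
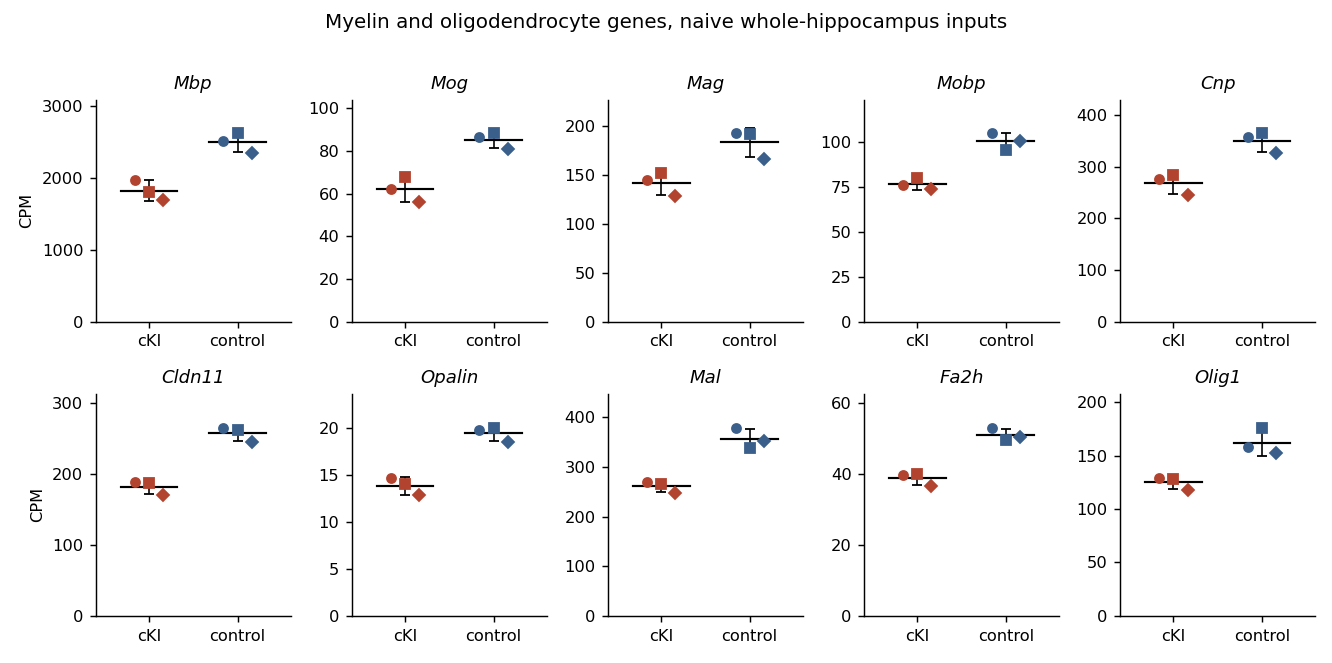
CPM (vertical axes, each from 0) of 9 of the 11 called oligodendrocyte genes and of Olig1 in naive inputs, with cKI at the left and control at the right of each panel. Circles, squares and diamonds are replicates 1, 2 and 3, the line is the mean and the bar the SD. In all 10 genes drawn every cKI input lies below every control input.

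Summed over the 20 members, cKI inputs held 6008, 6001 and 5251 CPM and control inputs 7789, 7531 and 7191 CPM, a ratio of 0.767. Replicate 3 was the lowest of the cKI inputs, and the other 2 also lay below all control inputs. Without it 5 of the 20 were still called, namely Mbp, Mog, Mobp, Cldn11 and Mal, and the list's median was -0.29. Without control replicate 2, 7 were called, Mag and Fa2h no longer among them (edgeR adjusted p = 0.13 and 0.076), and the median was -0.39. With sequencing lane as a covariate, a term that rested on control replicate 3 alone, 9 were called. In a fit of the 6 libraries alone 1 was. In bulk tissue, fewer oligodendrocytes and less RNA per oligodendrocyte cannot be told apart.

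Other genes of the oligodendrocyte lineage, named here after their values were seen, fell alongside. Olig1, a lineage transcription factor on the precursor list, was at 129, 128 and 118 CPM in cKI inputs and at 158, 176 and 152 CPM in control inputs (log2 fold change -0.37, SE 0.06, edgeR adjusted p = 0.0086). Bcas1, which marks newly myelinating cells, had a log2 fold change of -0.39, the gap junction subunit Gjc3 of -0.55 and the actin-severing protein Gsn of -0.60. All 4 were still called without cKI replicate 3. The other 12 precursor genes did not pass. Among them Pdgfra, the growth factor receptor of precursors, had a log2 fold change of -0.11 (edgeR adjusted p = 0.28) and Olig2 of -0.13 (edgeR adjusted p = 0.27).

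In mice taken 1 h after conditioning the same 20 genes summed to 5091, 5389 and 5259 CPM in cKI inputs and to 5759, 6401 and 5493 CPM in control inputs, again with every cKI input below every control input. The only one called was Mobp (log2 fold change -0.45, edgeR adjusted p = 0.013), and the list's median was -0.09, while 0.317% of all genes were called in the 1 h inputs and 0.234% were called lower. None of the 20 passed edgeR's test of the difference between the 2 training states, which 0.0413% of all genes passed, and in the 1 h inputs cKI and control were on different lanes. In naive pulldowns 2 of the 17 members measured were lower, with a median of -0.37, against 4.56% of all genes called there (3.06% lower and 1.5% higher). Naive pulldowns of the 2 genotypes were on different lanes too, so genotype and lane cannot be told apart in either comparison.

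Astrocytes showed 3 lower genes of 21. Agt, the angiotensin precursor that astrocytes secrete, was at 19.1, 17.1 and 18.2 CPM in cKI inputs and at 25.2, 33.3 and 24.8 CPM in control inputs (log2 fold change -0.62, SE 0.10, edgeR adjusted p = 0.015). Clu, a secreted chaperone, had a log2 fold change of -0.30 and Cbs, the transsulfuration enzyme, of -0.38. The defining marker Gfap, an intermediate filament, was at 516, 506 and 455 CPM in cKI inputs and at 558, 518 and 548 CPM in control inputs and did not pass (log2 fold change -0.14, edgeR adjusted p = 0.21). Of the 3, Agt was still called without cKI replicate 3, and Cbs was not called without control replicate 2 (edgeR adjusted p = 0.077). 2 stem and progenitor factors that glia also use, both picked after their values were seen, were called: Sox2 at 35.8, 37.5 and 35.6 CPM in cKI inputs against 46.0, 46.8 and 45.8 CPM in control inputs, and Sox21 with a log2 fold change of -0.50. Both were still called without that library.

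No microglial marker of 21 passed, although 18 had a log2 fold change above 0, with a median of 0.16. At an unadjusted p under 0.05 edgeR's test found 7 of them, and DESeq2's Wald test called 4. Among all genes these counts were 2736 of 14515 and 526 of 14509. Their sums were 923, 890 and 779 CPM in cKI inputs and 719, 769 and 784 CPM in control inputs, which overlap through cKI replicate 3. C1qa, a complement component made by microglia, was at 80.3, 77.1 and 60 CPM in cKI inputs and at 49.4, 59.6 and 52.8 CPM in control inputs (log2 fold change 0.43, edgeR adjusted p = 0.13). Some immune genes outside the list, noted after their values were seen, did pass and were higher. Mpeg1, a pore-forming protein of phagocytes, was at 68.7, 73.2 and 54.8 CPM in cKI inputs and at 44.3, 37.0 and 48.1 CPM in control inputs (log2 fold change 0.61, SE 0.13, edgeR adjusted p = 0.046). The nucleic acid sensor Tlr7 had a log2 fold change of 0.56, the lipopeptide receptor Tlr1 of 1.62, the inhibitory receptors Lair1 and Cd72 of 0.47 and 1.29, and the phagocytic receptor Mertk of 0.33. Without cKI replicate 3, Mpeg1 was still called (edgeR adjusted p = 0.022), and the other 5 had an edgeR adjusted p between 0.052 and 0.083. Without control replicate 2, Mpeg1 (edgeR adjusted p = 0.15), Tlr7, Lair1 and Cd72 were not called. Mpeg1 lost its call in 9 of 14 alternative analyses.

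Interferon and antigen presentation genes leaned the same way without any call. Of 29 tested, 28 had a log2 fold change above 0 and the median was 0.25, with 0 called by edgeR and 0 by DESeq2. At an unadjusted p under 0.05 edgeR found 3 of them, and 2736 of all 14515 genes. Their sums were 721, 617 and 648 CPM in cKI inputs and 474, 542 and 595 CPM in control inputs, and at 1 h they were 445, 550 and 607 CPM in cKI inputs and 637, 412 and 532 CPM in control inputs. The naive groups were apart and the 1 h groups overlapped. Among 12 genes of reactive glia, Serpina3n, a secreted protease inhibitor of reactive astrocytes, was called. It was at 66.7, 80.0 and 86.4 CPM in cKI inputs and at 54.7, 50.9 and 58.5 CPM in control inputs (log2 fold change 0.51, SE 0.09, edgeR adjusted p = 0.018), and it was also called at 1 h (0.56, edgeR adjusted p = 0.022). Without cKI replicate 3 its log2 fold change in naive inputs was 0.42 (edgeR adjusted p = 0.053), and without control replicate 2 it was 0.46 (edgeR adjusted p = 0.077). C3, the central complement component, was at 9.40, 12.8 and 8.97 CPM in cKI inputs and at 3.36, 4.00 and 4.06 CPM in control inputs, with groups apart, and missed the threshold (log2 fold change 1.45, SE 0.31, edgeR adjusted p = 0.057).

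**Figure D2:**
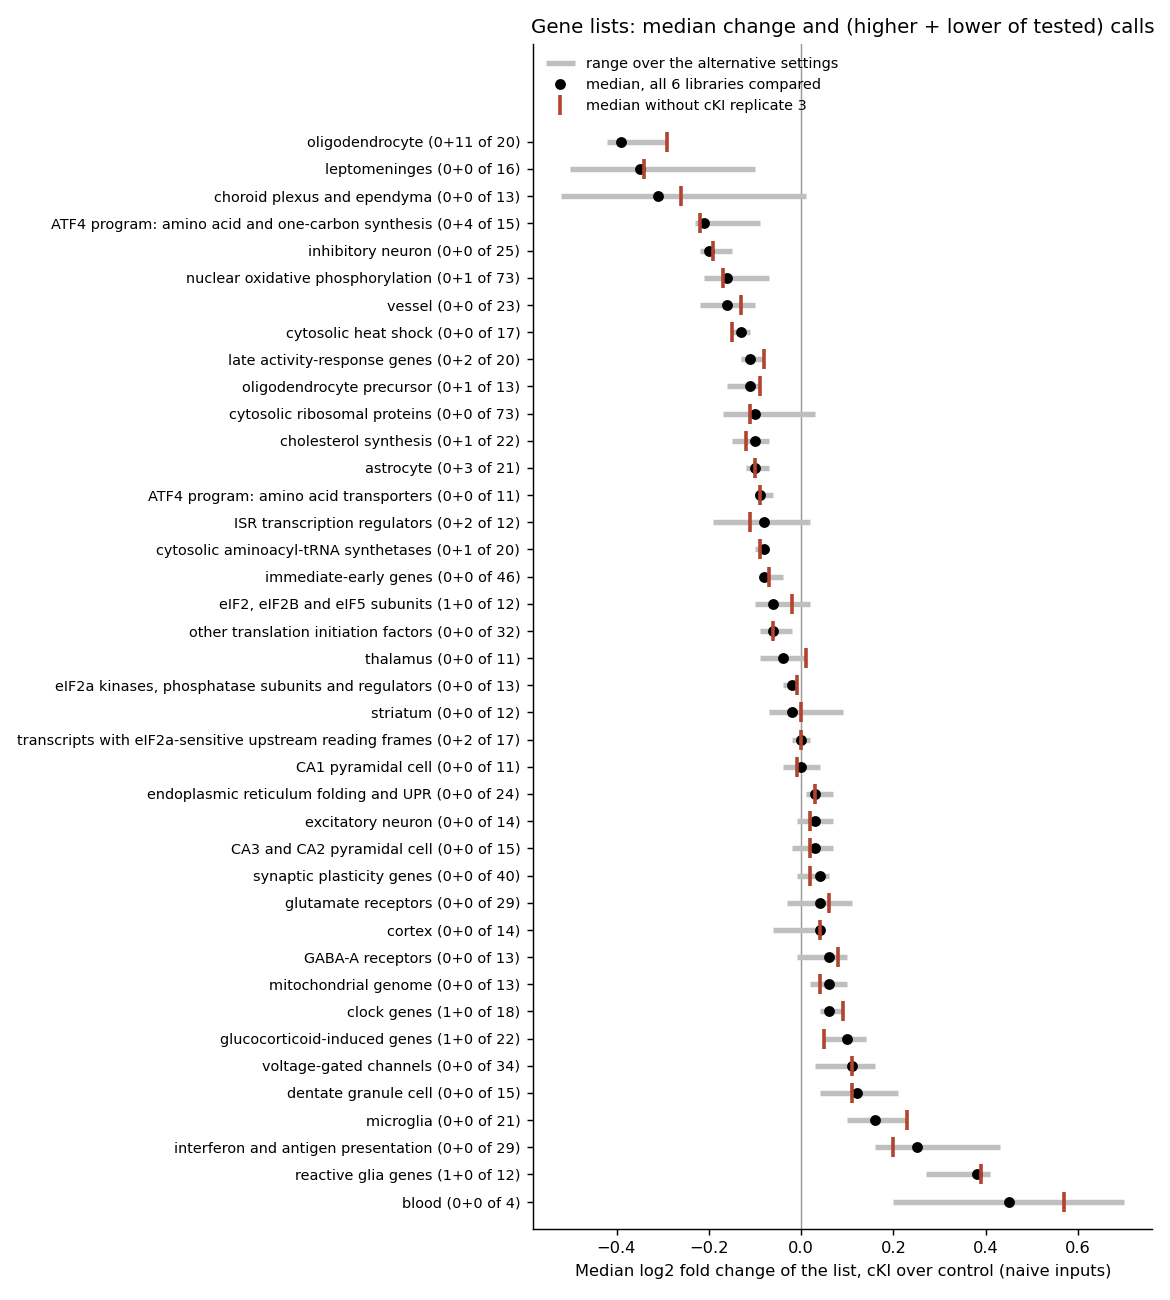
Median log2 fold change of cKI over control in naive inputs (horizontal axis) for the 40 gene lists, with the genes called higher and lower of those tested in brackets. Dots are the medians from all 6 libraries, red ticks those without cKI replicate 3, and grey bars the range over the alternative analyses. Oligodendrocyte genes lie lowest, at -0.39.

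Transcripts of the eIF2α pathway also differed. Eif2s1, which encodes eIF2α, was at 45.3, 39.8 and 44.7 CPM in cKI inputs and at 33.2, 35.6 and 36.4 CPM in control inputs, with groups apart (log2 fold change 0.30, SE 0.06, edgeR adjusted p = 0.024). Counts per gene cannot show which copy the reads came from, so this does not check the replaced codon or the removal of the transgene. The other 11 genes of eIF2, eIF2B and eIF5 did not pass, Eif5 being the nearest (log2 fold change 0.19, edgeR adjusted p = 0.061). None of 13 genes for eIF2α kinases, phosphatase subunits and regulators passed by edgeR or by DESeq2, and 1 had an unadjusted p under 0.05 by edgeR.

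Atf4 was lower. It was at 94.8, 90.8 and 94.5 CPM in cKI inputs and at 113, 125 and 114 CPM in control inputs (log2 fold change -0.33, SE 0.06, edgeR adjusted p = 0.022). The same log2 fold change, -0.33, was found in the mice taken 1 h after conditioning (edgeR adjusted p = 0.043), and -0.52 in naive pulldowns (edgeR adjusted p = 0.020). Chac1, which degrades glutathione and is a sensitive ATF4 target, was at 5.16, 4.08 and 4.40 CPM in cKI inputs and at 6.58, 7.74 and 7.86 CPM in control inputs (log2 fold change -0.70, SE 0.14, edgeR adjusted p = 0.039). These were the 2 called among 12 transcription regulators and markers of the integrated stress response. Ddit3, the stress factor CHOP, was at 17.6, 17.7 and 18.7 CPM in cKI inputs and at 17.3, 22.7 and 18.6 CPM in control inputs, and its groups overlapped.

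Of 15 amino acid and one-carbon synthesis genes of the ATF4 program, 4 were lower and 14 had a log2 fold change of 0 or below, with a median of -0.21. Asns, asparagine synthetase, was at 82.0, 78.3 and 83.4 CPM in cKI inputs and at 92.0, 97.7 and 93.0 CPM in control inputs (log2 fold change -0.21, SE 0.05, edgeR adjusted p = 0.043). Psph, the last step of serine synthesis, had a log2 fold change of -0.35, Cbs of -0.38 and Got1, the cytosolic aspartate aminotransferase, of -0.21. Among 20 cytosolic tRNA synthetases 1 was lower, Nars, which charges asparagine tRNA (log2 fold change -0.19, edgeR adjusted p = 0.027). Of the 20, 18 had values below 0 and the median was -0.08. Lists outside the program leaned too. Values were below 0 in 25 of 32 other initiation factor genes (median -0.06) and in 61 of 73 cytosolic ribosomal protein genes (median -0.10). They were above 0 in 29 of 34 voltage-gated channel genes (median 0.11). None of the 11 amino acid transporters passed by edgeR, where 4 had an unadjusted p under 0.05, and 1 passed by DESeq2. Slc1a4, a neutral amino acid transporter, was at 58.8, 60.8 and 66.1 CPM in cKI inputs and at 72.8, 72.2 and 80.5 CPM in control inputs (log2 fold change -0.28, edgeR adjusted p = 0.060).

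**Figure D3:**
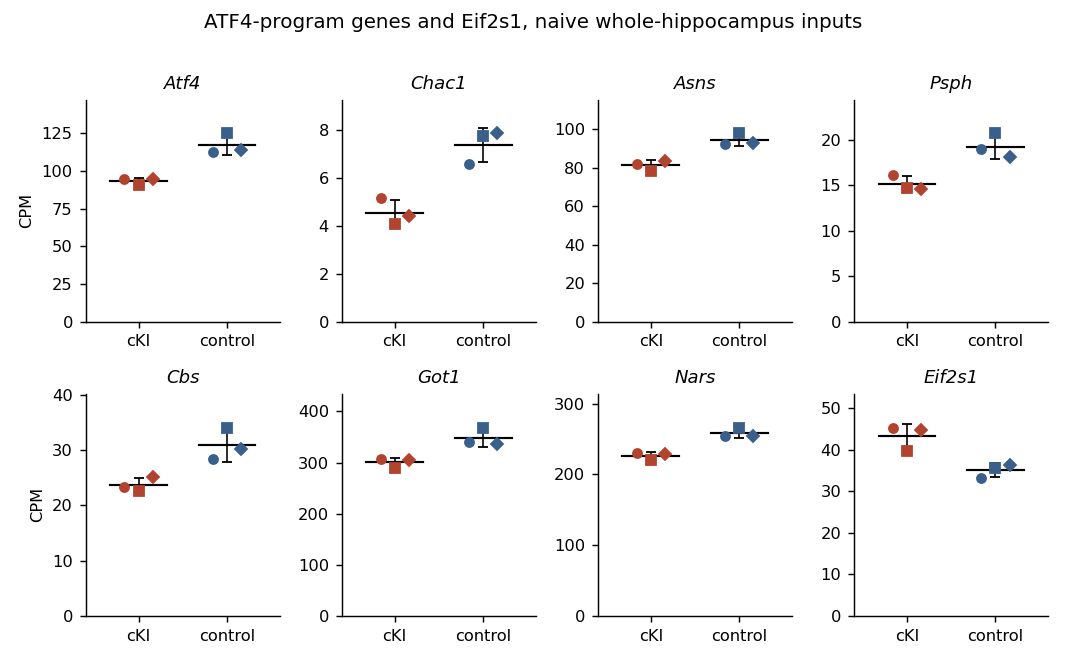
CPM (vertical axes, each from 0) of Atf4, of 6 called genes of its program and of Eif2s1 in naive inputs, with cKI at the left and control at the right of each panel. Circles, squares and diamonds are replicates 1, 2 and 3, the line is the mean and the bar the SD. Eif2s1 is higher in every cKI input than in any control input, and the other 7 genes are lower.

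None of these pathway calls passed without cKI replicate 3. Atf4 then had a log2 fold change of -0.34 (edgeR adjusted p = 0.052), Chac1 of -0.68 (edgeR adjusted p = 0.10), Asns of -0.23 (edgeR adjusted p = 0.063) and Eif2s1 of 0.28 (edgeR adjusted p = 0.072). Their sizes hardly moved, and the median of the synthesis genes was -0.22. The loss was not particular to that library. Atf4 was not called without cKI replicate 1 or without replicate 2 either (edgeR adjusted p = 0.069 and 0.091). The same held for Chac1, Psph, Cbs, Got1 and Nars (edgeR adjusted p between 0.058 and 0.16). Eif2s1 was not called without cKI replicate 1 (edgeR adjusted p = 0.087). In a fit of the 6 libraries alone none of these pathway genes was called. Without control replicate 2, Atf4, Eif2s1, Got1 and Nars were called, while Chac1, Asns, Psph and Cbs were not (edgeR adjusted p between 0.062 and 0.078). Without both libraries the median of the synthesis genes was -0.09. Stress programs next to the ATF4 one gave no call by edgeR: 0 of 24 endoplasmic reticulum folding genes (median 0.03) and 0 of 17 cytosolic heat shock genes (median -0.13). In the same order 10 and 14 had a log2 fold change below 0. At an unadjusted p under 0.05 edgeR found 9 and 7, and DESeq2 called 2 and 4. Among all genes these counts were 2736 of 14515 and 526 of 14509.

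Promoters of the called ATF4-program genes are shown because ATF4 with a C/EBP partner binds a composite element whose core can be written TGATGNAA. The windows run from 250 bases before to 50 after the annotated start, from RefSeq on GRCm38.p6. Both strands were searched, so a match on the other strand reads TTNCATCA, and the 2 forms do not overlap in the windows shown. Of 6 called members with a window, 3 held a match. Asns (chr6:7693160-7693459, minus strand) held it 23 bases before the start, Chac1 (chr2:119350992-119351291, plus strand) 193 bases before it and Got1 (chr19:43524556-43524855, minus strand) 102 bases before it, counted to the first base of the match. The match is in capitals, and the sequences read 5′ to 3′ along the gene's strand.
Asns: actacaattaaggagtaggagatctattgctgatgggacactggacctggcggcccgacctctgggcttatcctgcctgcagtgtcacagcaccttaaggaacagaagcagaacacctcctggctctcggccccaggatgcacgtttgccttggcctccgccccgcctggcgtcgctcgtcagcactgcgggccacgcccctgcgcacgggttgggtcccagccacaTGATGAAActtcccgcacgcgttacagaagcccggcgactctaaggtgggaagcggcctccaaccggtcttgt
Chac1: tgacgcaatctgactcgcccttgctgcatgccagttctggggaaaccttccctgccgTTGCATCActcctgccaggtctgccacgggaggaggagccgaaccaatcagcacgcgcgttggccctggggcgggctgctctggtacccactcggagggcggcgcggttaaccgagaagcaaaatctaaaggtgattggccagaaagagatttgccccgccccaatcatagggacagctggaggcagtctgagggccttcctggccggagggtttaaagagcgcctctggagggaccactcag
Got1: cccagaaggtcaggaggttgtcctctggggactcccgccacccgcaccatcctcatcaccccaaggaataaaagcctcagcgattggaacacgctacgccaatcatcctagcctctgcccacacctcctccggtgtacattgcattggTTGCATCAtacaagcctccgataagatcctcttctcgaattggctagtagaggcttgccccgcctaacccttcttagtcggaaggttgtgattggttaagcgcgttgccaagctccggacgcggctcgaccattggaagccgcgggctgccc

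Atf4, Cbs and Psph had no match in their windows. Over the 4 ATF4-program lists 13 of 42 tested genes with a window held a match, which is 31.0%, against 2.64% of all 10718 tested genes with a window and 3.97% of all 32851 windows. The members without a call that held a match included Slc1a4, Slc7a11, Atf3 and Nupr1. The 4 lists were made of genes placed in the ATF4 program, so their share of matches says nothing about the calls. A match describes letters and does not show binding.

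Some single genes of neurons were lower, most of them noted after their values were seen. Nefm, the medium neurofilament that supports the calibre of axons, was at 208, 198 and 211 CPM in cKI inputs and at 264, 262 and 265 CPM in control inputs (log2 fold change -0.36, SE 0.04, edgeR adjusted p = 0.0022). It was also lower at 1 h (log2 fold change -0.27, edgeR adjusted p = 0.016). Nefh, the heavy neurofilament, was at 63.9, 70.5 and 67.9 CPM in cKI inputs and at 86.6, 84.8 and 84.0 CPM in control inputs (log2 fold change -0.34). The light chain Nefl did not pass, with 585, 537 and 394 CPM in cKI inputs and 617, 566 and 624 CPM in control inputs, and its groups overlapped.

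Vgf, the precursor of secreted peptides that activity and BDNF induce, was at 176, 181 and 180 CPM in cKI inputs and at 229, 255 and 237 CPM in control inputs (log2 fold change -0.43, SE 0.05, edgeR adjusted p = 0.0047). Without cKI replicate 3 its log2 fold change was also -0.43 (edgeR adjusted p = 0.012), and it was called in each of the 14 alternative analyses. Vgf and Nefm were the 2 lower of 20 late activity-response genes. Uchl1, an abundant neuronal ubiquitin hydrolase, had a log2 fold change of -0.41, Tubb3, the neuronal β-tubulin, of -0.21, the nicotinic receptor modulator Lynx1 of -0.33 and the vesicle GTPase Rab3b of -0.75. Without cKI replicate 3, Nefm, Uchl1, Lynx1 and Rab3b were still called, and Nefh and Tubb3 were not (edgeR adjusted p = 0.052 and 0.063).

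Genes that respond to neuronal activity at once were not called: 0 of 46 immediate-early genes passed by edgeR, 11 reached an unadjusted p under 0.05 in it, 3 passed by DESeq2, with a median of -0.08. Fos was at 9.01, 7.94 and 6.22 CPM in cKI inputs and at 13.5, 6.81 and 10.5 CPM in control inputs. None of 40 synaptic plasticity genes, 29 glutamate receptor genes, 13 GABA-A receptor genes or 34 voltage-gated channel genes passed by edgeR. In the same order 6, 3, 4 and 5 had an unadjusted p under 0.05, and DESeq2 called 2, 1, 0 and 1. Among all genes these counts were 2736 of 14515 and 526 of 14509. Camk2a, whose promoter drives the Cre, was at 3068, 2909 and 3106 CPM in cKI inputs and at 2767, 2042 and 3101 CPM in control inputs, with control replicate 2 the lowest. The marker lists of the neuron types (excitatory, dentate granule, CA1, CA3 with CA2, and inhibitory) also gave 0 calls by edgeR, with medians of 0.03, 0.12, 0.00, 0.03 and -0.20. In the same order 1, 6, 2, 3 and 12 of them had an unadjusted p under 0.05, and DESeq2 called 0, 2, 0, 0 and 3. Of the 25 inhibitory neuron genes, 20 had a log2 fold change below 0. Of the 15 dentate granule genes, 13 had one above 0.

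Other single genes of neurons, noted in the same way, were higher. Adarb2, an RNA-binding protein of the adenosine deaminase family without known editing activity, was at 40.8, 49.2 and 48.1 CPM in cKI inputs and at 23.7, 18.7 and 25.9 CPM in control inputs (log2 fold change 1.01, SE 0.14, edgeR adjusted p = 0.0086). The active-zone protein Rimbp2 had a log2 fold change of 0.30, the receptor kinase Grk3 of 0.33, the modifier potassium channel subunit Kcnv1 of 0.36 and the calcium sensor of exocytosis Syt7 of 0.18. Without cKI replicate 3, Adarb2 (log2 fold change 0.98), Rimbp2 and Kcnv1 were still called, and Grk3 and Syt7 were not (edgeR adjusted p = 0.057 and 0.10).

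Nuclear genes of oxidative phosphorylation all had log2 fold changes below 0, 73 of 73, with a median of -0.16, but only Sdhb, a subunit of succinate dehydrogenase, passed. Their sums were 8744, 8085 and 8564 CPM in cKI inputs and 8936, 10393 and 8918 CPM in control inputs, and control replicate 2 held the highest. Without it the median was -0.07. Sdhb was not called without cKI replicate 3 (edgeR adjusted p = 0.066), and DESeq2 called 10 of the 73. The 22 genes of cholesterol synthesis and uptake had a median log2 fold change of -0.10, and 17 of them had one below 0.

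Outside the lists the largest changes were in genes of varied function. Among the lower ones, Sod3, the extracellular superoxide dismutase, was at 5.04, 4.47 and 3.81 CPM in cKI inputs and at 10.5, 12.5 and 13.2 CPM in control inputs (log2 fold change -1.44, SE 0.21, edgeR adjusted p = 0.0086). Nkd1, an inhibitor of Wnt signalling, was at 9.37, 9.05 and 7.75 CPM in cKI inputs and at 14.8, 14.7 and 14.4 CPM in control inputs (log2 fold change -0.74, SE 0.08, edgeR adjusted p = 0.0022). Ret, the receptor of glial cell line-derived neurotrophic factors, had a log2 fold change of -0.74. Sod3 and Nkd1 were still called without cKI replicate 3, and Ret was not (edgeR adjusted p = 0.11).

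Among the higher ones, Acer2, an alkaline ceramidase of the Golgi, was at 11, 8.25 and 6.55 CPM in cKI inputs and at 2.41, 3.69 and 3.61 CPM in control inputs (log2 fold change 1.41, SE 0.21, edgeR adjusted p = 0.0091). Ifrd2, a factor that binds inactive ribosomes, was at 6.35, 6.69 and 7.98 CPM in cKI inputs and at 2.96, 2.76 and 2.77 CPM in control inputs (log2 fold change 1.31, SE 0.19, edgeR adjusted p = 0.0086). Both were called without cKI replicate 3, and Ifrd2 was also higher in naive pulldowns, with a log2 fold change of 2.15. Sfrp1, a secreted Wnt antagonist, had a log2 fold change of 0.86, and Ciart, a repressor of the circadian clock, of 0.64, the 1 call among 18 clock genes. Sfrp1 was still called without cKI replicate 3, and Ciart was not (edgeR adjusted p = 0.057).

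Gm10073, a predicted gene, was nearly absent from control inputs. It had 182, 186 and 133 counts in cKI inputs and 1, 0 and 0 counts in control inputs, a ratio of 545 per total count with an exact 95% interval of 97.4 to 21574 that covers counting error only. It was also called at 1 h and in naive pulldowns.

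Some called genes lay close together. In the gene order of GRCm38.p6, 26 of the 147 called genes that could be placed fell into 5 runs of 3 or more, with called neighbours at most 10 places apart among the measured genes, and 4 of the runs are described here. Of 854 measured genes on chromosome 4, 24 were called (2.81%), and the share was 1.70% on chromosome 5 and 1.58% on chromosome 13, against 1.05% of all genes. A run on chromosome 4 held 7 called genes among 12 measured: Usp48 was higher, and Rap1gap, Hp1bp3, Sh2d5, Kif17, Pink1 and Mul1 were lower. Pink1, the kinase that tags damaged mitochondria, was at 330, 303 and 341 CPM in cKI inputs and at 379, 446 and 394 CPM in control inputs (log2 fold change -0.32). Mul1, a ubiquitin ligase of the mitochondrial outer membrane, had a log2 fold change of -0.33. Hp1bp3, Sh2d5 and Mul1 of this run were still called without cKI replicate 3, and Usp48, Rap1gap, Kif17 and Pink1 were not (edgeR adjusted p between 0.052 and 0.12). Without control replicate 2, Sh2d5, Kif17 and Mul1 were called.

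Elsewhere on chromosome 4 Emc1, a subunit of the membrane protein insertase, was at 68.5, 67.1 and 71.7 CPM in cKI inputs and at 96.8, 98.3 and 93.8 CPM in control inputs (log2 fold change -0.48, SE 0.06, edgeR adjusted p = 0.0041). On chromosome 5, 6 of 13 were called, among them Mospd3, a protein of endoplasmic reticulum contact sites, at 9.86, 8.97 and 9.37 CPM in cKI inputs and 22.2, 30.7 and 24.8 CPM in control inputs (log2 fold change -1.46, SE 0.20, edgeR adjusted p = 0.0086). The myelin gene Gjc3 and the immune receptor Pilra lie in the same run, and Pilra was not called without cKI replicate 3 or without control replicate 2 (edgeR adjusted p = 0.052 and 0.076). The runs on chromosome 13 held Mocs2, Nnt, Tmem267 and Ccl28 among 14 genes, and 2810429I04Rik, Net1 and Adarb2 among 12. All 7 were called without cKI replicate 3, and all but Mocs2 without control replicate 2 (edgeR adjusted p = 0.084). All 7 called genes of the run on chromosome 4 and all 6 of that on chromosome 5 had the same direction at 1 h. On chromosome 13 this held for 2 of 3 and for 1 of 4. The runs were picked from these calls, and whether position plays a part was not tested.

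**Figure D4:**
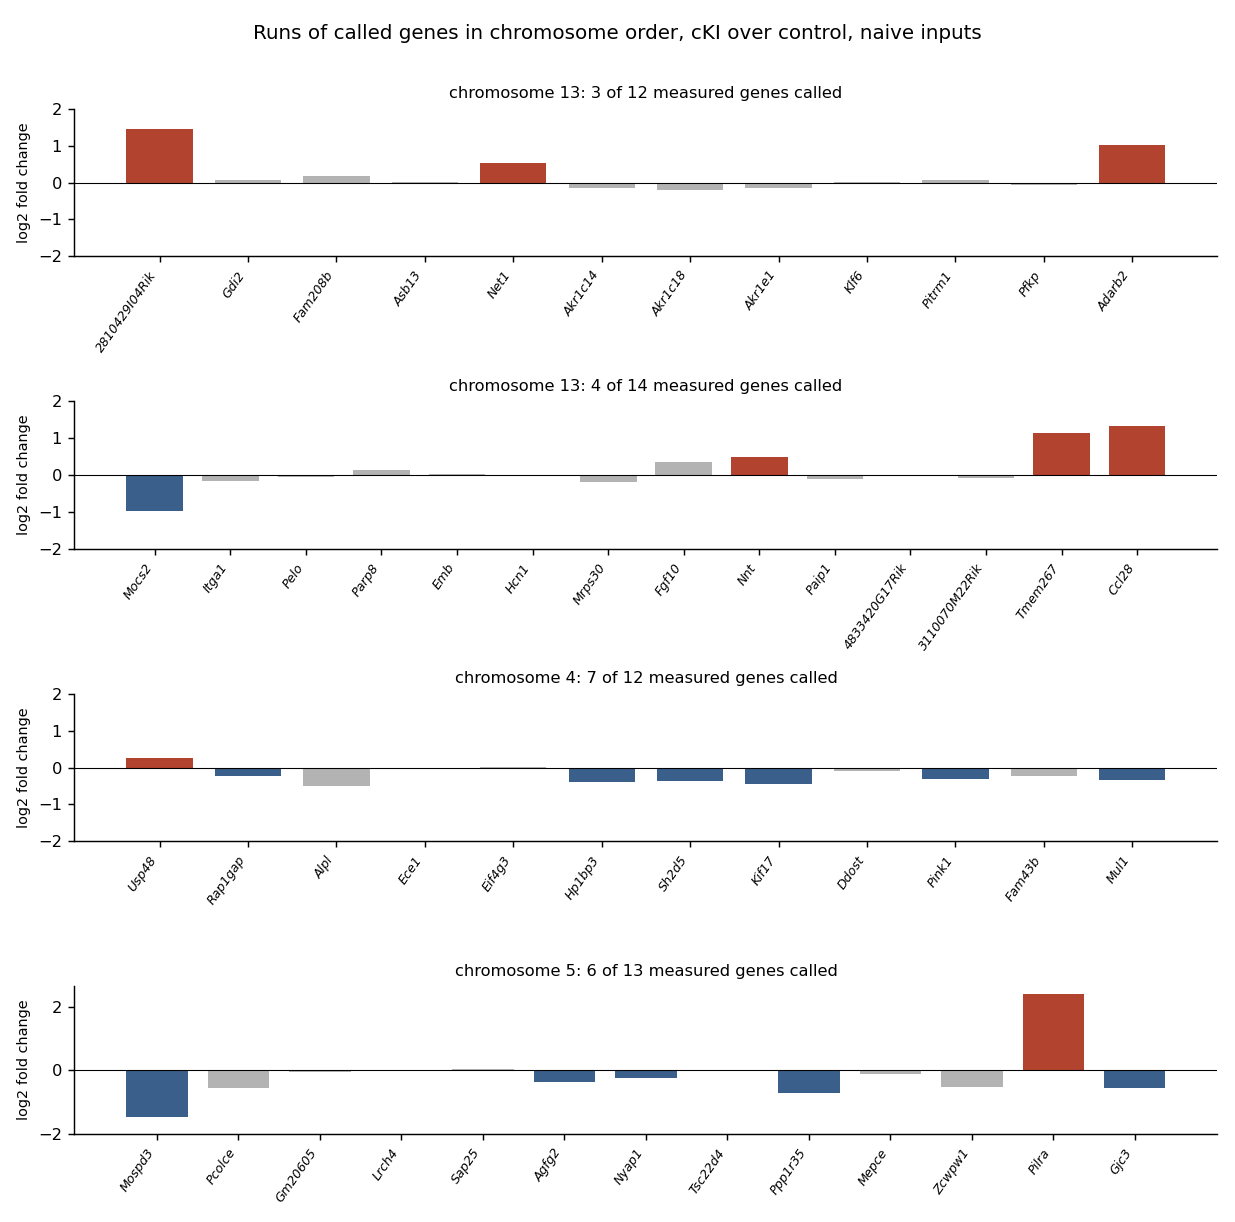
Log2 fold change of cKI over control in naive inputs (vertical axes, which differ in their upper end) for every measured gene within the 4 runs described, in chromosome order along the horizontal axis. Red bars are genes called higher in cKI, blue bars genes called lower, and grey bars genes not called. Called and uncalled genes are mixed, and some uncalled ones, such as Pcolce at -0.55 and Alpl at -0.50, have longer bars than called ones such as Rap1gap at -0.22.

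Of the 152 genes, 22 were also called 1 h after conditioning, which is 14.5% of the naive calls and 47.8% of the 46 calls at 1 h. The 2 comparisons share no mice. Lower genes kept their direction in 92 of 95 cases, with a median log2 fold change of -0.22 at 1 h, and 16 were called there, all of them lower again. Higher genes kept it in 39 of 57 cases, with a median of 0.12. Of the 6 higher genes called at 1 h, 3 were higher again and 3 were lower, and 2 of the 3 lower entries, Nnt and AC154550.1, may count the same reads.

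Hif3a, a hypoxia-inducible factor subunit that glucocorticoids also induce, was among those that turned round. It was at 15, 14.1 and 15.3 CPM in naive cKI inputs and at 7.99, 7.04 and 7.54 CPM in naive control inputs (log2 fold change 0.98, SE 0.08, edgeR adjusted p = 0.00017). At 1 h it was at 9.46, 9.35 and 8.29 CPM in cKI inputs and at 16.3, 14.9 and 17.1 CPM in control inputs (log2 fold change -0.83, edgeR adjusted p = 0.0011). The genotypes thus stood in opposite order in the 2 training states, and the difference between the 2 log2 fold changes was 1.81 (edgeR adjusted p = 1.2e-05). Its naive value without cKI replicate 3 was 0.95 (edgeR adjusted p = 0.00059). The other glucocorticoid-induced genes, 21 of 22, were not called. Among them Fkbp5, the receptor's co-chaperone, was at 91.4, 82.7 and 99.5 CPM in naive cKI inputs and 76.2, 92.1 and 78.3 CPM in naive control inputs. Of the 22, 15 had a naive log2 fold change above 0, with a median of 0.10. At an unadjusted p under 0.05 edgeR found 5 of them, and DESeq2 called 3. Without control replicate 2 edgeR called 3. The list's 23 genes in the count table summed to 1071, 1048 and 1117 CPM in naive cKI inputs. In naive control inputs they summed to 964, 976 and 956 CPM, with groups apart.

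Nnt, the mitochondrial transhydrogenase that supplies NADPH, also turned round. It was at 28.2, 28.3 and 27.8 CPM in naive cKI inputs and at 20.7, 20.1 and 19.6 CPM in naive control inputs, and at 28.9, 30.1 and 27.9 CPM in 1 h cKI inputs and 32.9, 40.1 and 40.6 CPM in 1 h control inputs. The cKI values were alike in the 2 states and the control values were not. In the same run on chromosome 13, Tmem267 and Ccl28 went from 1.15 and 1.33 in naive inputs to -0.39 and -0.31 at 1 h (log2 fold changes). Neither was called at 1 h or in the interaction test (edgeR adjusted p = 0.092 for each in the interaction). Mocs2 kept its sign (-0.97 and -0.27). AC154550.1 had almost the same value as Nnt in every library, and the 2 entries are not taken as separate results. In the 1 h inputs cKI and control were sequenced on different lanes, whereas the naive inputs shared lane 4 except for control replicate 3 on lane 5. With lane as a covariate 133 genes were called in naive inputs and 1 in 1 h inputs. Naive control was the only input group on both lanes, so the lane term rested on its replicate 3. For naive inputs it came close to leaving that library out, which gave 134 calls. The covariate is therefore no separate check of lane.

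**Figure D5:**
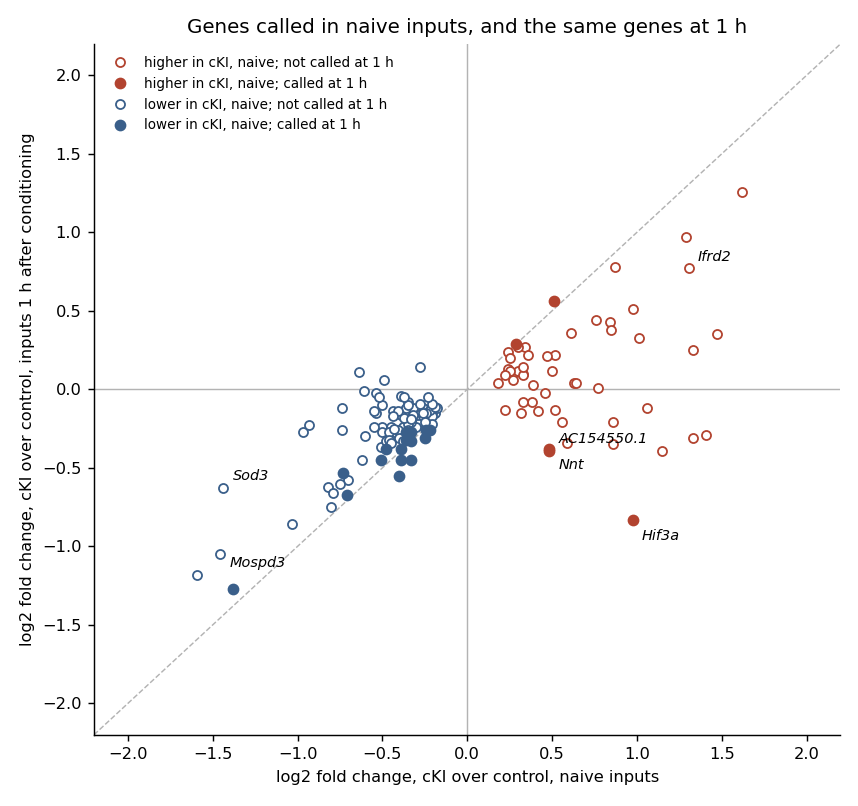
Log2 fold change of cKI over control in naive inputs (horizontal axis) and in inputs 1 h after conditioning (vertical axis) for 149 of the 152 genes called in naive inputs, with filled points for genes also called at 1 h. The dashed line marks equal values, and 3 genes lie beyond the axes. Blue points, lower in naive cKI, lie almost all below 0 on both axes, whereas Hif3a and Nnt lie in the lower right.

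Naive pulldowns are enriched for RNA on the ribosomes of Cre-positive neurons. Many of the genes called in naive inputs were poor in the pulldowns: in the 1 h control mice, 45.3% of the lower and 33.3% of the higher genes were depleted over 2-fold in the pulldown relative to the input, against 21.2% of all genes. The log2 ratio of pulldown over input was -3.65 for Mobp and -4.86 for Cldn11, while it was 0.57 for Nefm and 0.48 for Vgf.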

How the data were processed

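RNA was poly(A)-selected from whole hippocampal lysate and sequenced as paired 50-base reads, per the labels' protocols. The authors deposited raw read counts per gene for 24 libraries. Cutadapt, Bowtie and DESeq2 are listed, with no roles, per the submitters' processing notes. For the counting tool, genome build and strand setting, a statement is not given in the sources used here. Overlapping genes and near-identical copies therefore cannot be separated. Current names were found for 47598 symbols (92%).

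Tests used edgeR 4.0.16 in R 4.3.3 (robust quasi-likelihood test, TMM scaling, Benjamini-Hochberg adjustment over all genes tested). The 12 inputs were fitted together with 1 mean per group, so that naive and 1 h groups share the estimate of spread, and the 12 pulldowns likewise. Fitted alone, the 6 naive inputs gave 22 calls in place of 152, and the 6 inputs at 1 h gave 493 in place of 46. Many naive calls thus rested on the spread shared with the 1 h inputs. Without it the edgeR adjusted p of Mbp, for example, was 0.065. CPM are counts scaled to a common library total with TMM factors. On simulated counts for the naive input comparison (14515 genes), 70% of genes changed by 0.5 on the log2 scale and 96% of those changed by 1 were recovered, with 8 false calls. The simulation used the fitted spread and held no deviating library and no lane effect. Its rates therefore need not hold for the real libraries. An exact permutation test of 3 against 3 mice cannot go below 0.1, so single values were tested in the fit over all genes.

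The members and the 40 lists (887 genes, 865 in the table) were chosen with earlier results of these data known. Genes were named by rule: the 15 largest changes per direction among called genes with mean log2 CPM of at least 2, groups apart and no clone names; up to 3 members per list by smallest p; genes called at both times; and a fixed set. Other named genes were chosen after their values were seen, and a few results are not reported here. The alternatives tried were size factors of DESeq2, the Wald test of DESeq2 1.42.0, other filters, the 6 libraries alone, lane, replicate number and leaving out libraries.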

Additional observations from a re-analysis of the deposited data

Results flagged for a closer look

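In inputs the genotype difference itself differed between naive mice and mice taken 1 h after conditioning for 6 genes by the interaction test of edgeR, which is 0.0413% of the 14515 genes tested. The difference of the log2 fold changes (naive minus 1 h, each cKI over control) was 1.81 for Hif3a, 0.87 for Nnt, 0.86 for AC154550.1, 0.47 for Adipor2, -1.09 for Etnppl and -2.89 for A730081D07Rik. Nnt and AC154550.1 had almost equal counts and stand for 1 result.

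Adipor2, an adiponectin receptor, was at 79.9, 78.5 and 83.5 CPM in naive cKI inputs and at 67.6, 62.5 and 63.7 CPM in naive control inputs, against 80.1, 80.0 and 82.0 CPM in 1 h cKI inputs and 89.9, 91.7 and 86.6 CPM in 1 h control inputs. The cKI values were alike at both times, and the control values were not. Etnppl, an astrocyte enzyme that breaks down phosphoethanolamine, did not differ past the threshold in naive inputs (26.4, 19.7 and 26.6 CPM in cKI, 25.7, 24.1 and 24.3 CPM in control). At 1 h it was at 26.2, 22.2 and 21.2 CPM in cKI inputs and at 11, 11.3 and 11 CPM in control inputs, and the 1 h control inputs stand apart from the other 3 groups. A730081D07Rik, a clone-named gene, was at 1.40, 1.19 and 0.993 CPM in naive cKI inputs and 1.35, 1.52 and 1.56 CPM in naive control inputs, and at 0.896, 0.810 and 0.807 CPM in 1 h cKI inputs and 0.0347, 0.155 and 0.203 CPM in 1 h control inputs. The 1 h control inputs were also the only input group sequenced wholly on lane 5. With lane as a covariate, a term that rested on naive control replicate 3 alone, 1 gene passed the interaction test.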

How the results depend on the processing

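All 152 genes called in naive inputs kept their direction in every alternative run. Their groups did not overlap, so a change of direction was hardly possible when a library was left out. Of the 152, 38 stayed called whichever of the 6 libraries was left out. DESeq2's Wald test called 526 genes in naive inputs, 164 at 1 h, 35 in the interaction and 1327 in naive pulldowns. A fit of only the 6 libraries compared called 22, 493 and 309 (naive inputs, 1 h inputs, naive pulldowns). In naive inputs that fit gave 15 higher and 7 lower genes. With lane as a covariate 1 gene each was called at 1 h, in the interaction and in naive pulldowns. The lane term rested on a single library each time, naive control replicate 3 in inputs and 1 h cKI replicate 1 in pulldowns. Without a filter on low counts 10 genes were called in the interaction and 217 in naive inputs. Leaving out 1 library gave 55 to 134 calls in naive inputs, 3 to 34 at 1 h, 3 to 19 in the interaction and 19 to 1027 in naive pulldowns. In naive inputs 64 genes were called without cKI replicate 1 (53 of them among the 152), 55 without replicate 2 (52 among the 152), 88 without replicate 3 (67 among the 152) and 101 without control replicate 1 (80 among the 152). An alternative added after seeing the data left out cKI replicate 3 and control replicate 2 together. It called 133 genes in naive inputs, 85 of them among the 152. Same-numbered cKI and control inputs did not deviate together (correlations -0.248, -0.247 and 0.054), so the numbers were not taken as pairs. With the replicate block 92 genes were called in naive inputs, 13 at 1 h, 4 in the interaction and 1095 in naive pulldowns.

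Of the 60 called genes named by rule, 7 were called under all alternatives (Gm10073, Emc1, Hif3a, Ifrd2, Nkd1, Vgf and Cldn11), and none changed direction. With 3 mice per group and most changes under 0.5 on the log2 scale, a gene that was not called is not shown to be equal. The cause of the single-gene deviations of cKI replicate 3 was not tested.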
